A study of Mus musculus with 48 samples.

Results

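α cells of the pancreatic islet release glucagon, which raises blood glucose, and β cells release insulin, which lowers it. The 24 control libraries of the series, 12 of α cells and 12 of β cells, were compared here, out of 48 libraries in all. They were chosen by their labels (control group, cell subtype alpha or beta) and not by any measured value. Every mouse was a male aged 6 to 8 weeks and carried the reporters ProGcg-Venus and RIP-Cherry, the clock reporter PER2::Luc, and the transgenes Insulin-rtTA and TET-DTA. In that transgene pair doxycycline switches on diphtheria toxin A in cells that use the insulin promoter. The control mice received drinking water with 2% sucrose and no doxycycline, and the doxycycline groups of the series are not analysed here. Mice were fed at night for 10 days, and some had been entrained to inverted light and feeding cycles. Islets were dissociated with trypsin, and α and β cells were sorted by fluorescence at 6 zeitgeber times (ZT, hours after lights on), every 4 h from ZT0 to ZT20. Each cell type and time has 2 libraries. The labels do not say whether the duplicates came from separate animals or from pools, and every p-value therefore reflects the scatter among these libraries, which may be technical. Because the sort itself used reporters driven by glucagon and insulin promoters, Gcg, Ins1 and Ins2 check the labels and are not findings.

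Both cell types sense nutrients, turn them into electrical activity and release hormone from granules through calcium-triggered exocytosis, yet they respond to glucose in opposite ways. β cells take up and burn glucose in step with its level in blood, close their ATP-sensitive potassium channels and fire. α cells are known for their response to amino acids, adrenaline and vasopressin, and they are held back by somatostatin and by products of β cells. The comparison asks which transporters, channels, receptors, enzymes, adhesion molecules and secreted proteins the 2 cell types use in different amounts.

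The libraries held 16.1 to 62.6 M estimated counts in α cells and 22.3 to 69.9 M in β cells, with counts for 16325 to 19563 genes. The date codes in the titles place them in 2 sequencing runs. The earlier run has 5 libraries of each cell type and the later run 7 of each. Both ZT0 libraries of each cell type are from the later run, and the remaining times have a library from each run. Counts were lower in the earlier run, at 16.1 to 24.9 M (α) and 22.3 to 28.6 M (β). The later run held 43.3 to 62.6 M and 51.4 to 69.9 M. Gcg took 25.8 to 36.0% of the counts in α cells and at most 0.0254% in β cells. Ins2 took 17.5 to 26.4% of the counts in β cells and 0.0134 to 0.274% in α cells, and Mafa, a transcription factor of β cells, ran from 0 to 3.99 CPM in α cells (median 0.291) and from 128 to 369 CPM in β cells (median 249); CPM is the count scaled to the size of its library. All 12 libraries of each cell type thus carried the markers of their label. The α-cell library ZT20 replicate 2 stood apart: it held 2692 CPM of Ins2, against 137 to 459 in the other 11, and it was also the highest α-cell library for Mafa, Slc2a2, Glp1r, Prlr and Sytl4. Without it the log2 fold change of Mafa rose from 8.92 to 9.74. Summed acinar markers (30 genes of the digestive enzyme cells) ran from 38.9 to 1347 CPM in α cells and from 103 to 488 CPM in β cells. Summed macrophage and dendritic markers (20 genes) ran from 50.6 to 170.5 CPM in α cells and from 59.6 to 483 CPM in β cells. The α-cell library ZT4 replicate 2 was the highest α-cell library for both.

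Differences between α and β cells reached most of the measured genes. With time and run as terms, 10674 of 14945 genes tested differed (71.4%; edgeR quasi-likelihood F test, Benjamini-Hochberg adjusted p at most 0.05), 5105 of them higher in β cells (34.2%) and 5569 lower (37.3%). Since that threshold separates little, the groups below are counted at a stricter one, the same adjusted p and a difference of at least 2-fold, which 3543 genes passed (23.7%): 1657 were higher in β cells (11.1%) and 1886 lower (12.6%). At 32-fold or more, 124 genes were higher in β cells (0.830%) and 194 lower (1.30%). For 1696 genes every β library lay above every α library (11.3%), and for 1761 every β library lay below (11.8%). The median log2 fold change over all genes tested, given throughout as β minus α, was -0.03; a value with ± in parentheses after a gene is this log2 fold change with its SE, from edgeR. At the other end, 5530 genes (37%) had a 95% interval of the log2 fold change within -0.5 to 0.5. All these values compare levels of RNA per library, in which fewer cells of a type and less RNA per cell cannot be told apart.

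**Figure D1:**
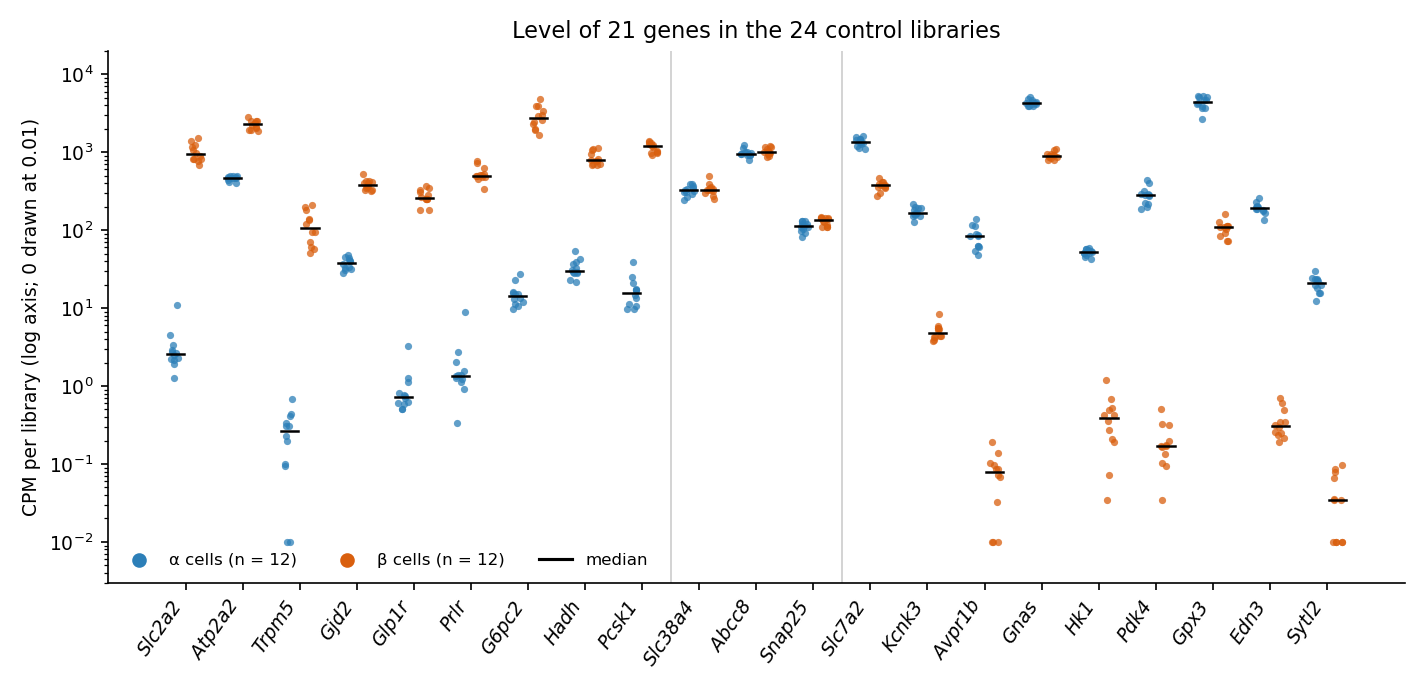
CPM per library (log axis, 0 drawn at 0.01) of 21 genes in the 12 α-cell libraries (blue) and the 12 β-cell libraries (orange), with the median as a bar. The 9 genes on the left were higher in β cells and the 9 on the right lower without overlap of the libraries, and the 3 in the middle overlapped.

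The start regions of the hormone genes and of a transporter and a fuel-switch enzyme are shown because the sort follows the first pair and the second pair has some of the largest differences described here. Each sequence is the stretch of 250 bases before the start of the gene, from RefSeq (build GRCm38.p6), 5′ to 3′ on the strand of the gene. Capitals mark matches to any of the motifs searched on both strands: TGCTGA (a MAF half-site), CATCTG (an E-box as in insulin genes), TAATTA (a homeodomain core), TGACGTCA (the cyclic AMP response element) and TGTTTAC (a forkhead core). Ins1 lies at chr19:52264047-52264296, plus strand; Gcg at chr2:62483654-62483903, minus strand; Slc2a2 at chr3:28697653-28697902, plus strand; and Pdk4 at chr6:5496279-5496528, minus strand.
Ins1: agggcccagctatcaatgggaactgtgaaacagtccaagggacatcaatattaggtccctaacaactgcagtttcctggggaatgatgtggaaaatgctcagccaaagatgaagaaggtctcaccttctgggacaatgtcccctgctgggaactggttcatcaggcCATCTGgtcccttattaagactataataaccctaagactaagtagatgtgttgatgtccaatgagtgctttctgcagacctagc
Gcg: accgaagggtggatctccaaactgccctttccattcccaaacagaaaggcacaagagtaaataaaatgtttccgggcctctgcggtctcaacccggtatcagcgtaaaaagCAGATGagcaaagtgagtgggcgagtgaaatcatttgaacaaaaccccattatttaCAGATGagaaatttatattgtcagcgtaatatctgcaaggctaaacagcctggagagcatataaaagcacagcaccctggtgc
Slc2a2: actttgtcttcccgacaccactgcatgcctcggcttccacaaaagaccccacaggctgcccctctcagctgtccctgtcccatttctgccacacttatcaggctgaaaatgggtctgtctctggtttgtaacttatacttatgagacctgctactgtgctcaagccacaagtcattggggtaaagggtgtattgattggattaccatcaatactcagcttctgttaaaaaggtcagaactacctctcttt
Pdk4: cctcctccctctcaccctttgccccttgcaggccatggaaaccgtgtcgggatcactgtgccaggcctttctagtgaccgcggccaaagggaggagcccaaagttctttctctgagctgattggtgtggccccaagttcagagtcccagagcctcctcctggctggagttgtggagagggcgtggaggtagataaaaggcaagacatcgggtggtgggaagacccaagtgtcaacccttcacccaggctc
Ins1 held 1 match, the E-box that begins 84 bases before the start, and Gcg held 2, both E-boxes read on the other strand, at 139 and 83 bases before the start. Slc2a2 and Pdk4 held none of these motifs in this window. Of the genes at least 32-fold higher in β cells, 92 of 124 had a promoter in the table, and 17.4% of these held TGCTGA and 17.4% CATCTG. Among genes at least 32-fold lower (136 of 194 matched) the shares were 11.8% and 11%, and among all genes tested (10914 matched) 12.6% and 9.95%. The homeodomain core stood in 4.35, 4.41 and 2.24% of these promoters, in the same order. The cyclic AMP response element stood in 3.26, 1.47 and 2.83% and the forkhead core in 2.17, 1.47 and 2.15%. No printed match overlaps another. Such matches are a description of letters and mark no bound site.

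Glucose carriers differed in which member was used and in their summed level. Slc2a2 (GLUT2), the low-affinity glucose transporter of β cells, ran from 1.25 to 10.8 CPM in α cells (median 2.57) and from 678 to 1501 CPM in β cells (median 942). Every β library lay above every α library (log2 fold change 8.33 ± 0.28, SE; edgeR adjusted p = 7.73e-17), and without the α library ZT20 replicate 2 the log2 fold change was 8.63. Slc2a3 (GLUT3), a high-affinity glucose carrier, showed the opposite pattern and ran from 16.2 to 25.1 CPM in α cells (median 21.5) and from 0 to 0.924 CPM in β cells (median 0.237) (log2 fold change -6.14 ± 0.29, SE; edgeR adjusted p = 3.23e-14). The fructose carrier Slc2a5 was abundant in both cell types, with medians of 166 (α) and 325 CPM (β). On the deposited RPKM scale, which divides by gene length, Slc2a5 made up 77 ± 2.57% of the summed glucose transporter family in α cells (mean ± SD, n = 12) and 33.8 ± 4.56% in β cells, where Slc2a2 led with 60.0 ± 5.27%. The family summed to 62.3 ± 6.57 RPKM in α cells and 288 ± 41.0 RPKM in β cells. Slc2a1 (GLUT1), another member, did not share the pattern of Slc2a3. It had means of 3.20 (α) and 4.37 RPKM (β), beside 2.95 and 0.0431 RPKM for Slc2a3.

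Several amino acid carriers were higher in α cells. Slc7a2, a carrier of arginine and lysine, ran from 1100.4 to 1591 CPM in α cells (median 1352) and from 276 to 463 CPM in β cells (median 377), without overlap (log2 fold change -1.87 ± 0.07, SE; edgeR adjusted p = 1.17e-15). Slc38a5, which carries glutamine and is known in α cells, ran from 62 to 167 CPM in α cells (median 94.8) and from 0.345 to 6.14 CPM in β cells (median 2.22) (log2 fold change -5.36 ± 0.19, SE; edgeR adjusted p = 1.88e-16). Its relative Slc38a4 had medians of 323 (α) and 331 CPM (β), and its 95% interval of the log2 fold change, -0.11 to 0.20, lay around 0. Within the neutral amino acid carriers Slc38a5 therefore supplied 21.5 ± 4.89% of the summed RPKM in α cells and 0.559 ± 0.309% in β cells, whereas Slc38a4 was the leading member in both. Slc7a8, a light chain for large neutral amino acids, was lower in β cells (log2 fold change -1.13 ± 0.07). In the other direction Slc6a19, which takes up neutral amino acids with sodium, ran from 0 to 0.505 CPM in α cells (median 0.11) and from 9.81 to 28.4 CPM in β cells (median 20.5) (log2 fold change 7.02 ± 0.25).

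Of 240 solute carriers tested, 40 were at least 2-fold higher in β cells and 35 at least 2-fold lower (16.7 and 14.6%, against 11.1 and 12.6% of all genes); their median log2 fold change was 0.12. Among the others named by rule, the potassium-chloride cotransporter Slc12a7 (3.60 ± 0.09), the sodium bicarbonate carrier Slc4a10 (2.84 ± 0.13) and Slc22a23 (2.93 ± 0.10) were higher in β cells. The mitochondrial pyrimidine nucleotide carrier Slc25a33 (-7.68 ± 0.24), the fatty acid transport protein Slc27a2 (-6.87 ± 0.32) and the magnesium carrier Slc41a2 (-3.29 ± 0.11) were lower. Slc25a33 ran from 15.1 to 21.1 CPM in α cells (median 18.8) and from 0 to 0.218 CPM in β cells (median 0.0858); 2 of the 12 β libraries held no count of it.

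Among ion pumps and ABC transporters, more genes were at least 2-fold higher in β cells than lower, though most were neither. Of 16 ion pumps tested, 5 were at least 2-fold higher in β cells and 1 at least 2-fold lower. These shares were 31.2 and 6.25%, against 11.1 and 12.6% of all genes. Atp2a2 (SERCA2), the pump that refills the endoplasmic reticulum with calcium, ran from 403 to 500.4 CPM in α cells (median 469) and from 1889 to 2817 CPM in β cells (median 2292), and all 12 β libraries exceeded all 12 α libraries (log2 fold change 2.29 ± 0.07, SE; edgeR adjusted p = 2.06e-17). Atp2a3 (SERCA3), its relative in islet and blood cells, had medians of 368 (α) and 1588 CPM (β) (log2 fold change 2.13 ± 0.07). Of 37 ABC transporters tested, 8 were at least 2-fold higher in β cells and 4 at least 2-fold lower (21.6 and 10.8%). The phospholipid exporter Abcb4 (4.96 ± 0.18) and the cyclic nucleotide exporter Abcc4 (2.82 ± 0.10) were among the higher. Abcc8 (SUR1), the sulfonylurea receptor of the ATP-sensitive potassium channel, did not pass the test: medians were 947 (α) and 991 CPM (β), and the 95% interval of its log2 fold change was -0.05 to 0.19. Slc30a8, which loads zinc into granules, passed with a small difference (0.54 ± 0.07) and overlapping libraries. All 3 aquaporins tested were higher in β cells, and the 2 named by rule, Aqp4 and Aqp11, by 3.15 and 2.52 on the log2 scale.

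Potassium channels differed about equally often in each direction, with a median log2 fold change of 0.07. Of 56 tested, 17 were at least 2-fold higher in β cells and 17 lower (30.4% each, against 11.1 and 12.6% of all genes). Kcnj12 (Kir2.2), a strong inward rectifier, ran from 0 to 0.117 CPM in α cells (median 0.0384) and from 10.8 to 21.4 CPM in β cells (median 15.3) (log2 fold change 8.22 ± 0.24, SE; edgeR adjusted p = 9.78e-18), and 5 α libraries held no count of it. The channel-interacting proteins Kcnip2 (5.58 ± 0.31) and Kcnip1 (4.59 ± 0.16), which bind Kv4 channels and calcium, were also higher. Kcnk3 (TASK-1), an acid-sensitive background channel, ran from 128 to 213 CPM in α cells (median 165) and from 3.8 to 8.5 CPM in β cells (median 4.83) (log2 fold change -5.07 ± 0.13, SE; edgeR adjusted p = 7.3e-19). Kcnj3 (GIRK1), a channel opened by Gi-coupled receptors, ran from 25 to 44.7 CPM in α cells (median 32.7) and from 0 to 0.519 CPM in β cells (median 0.215) (log2 fold change -7.45 ± 0.24). Kcna5 (-5.27 ± 0.17) and Kcnip3 (-3.47 ± 0.29) were lower as well. Groups did not overlap for any of these 7 genes.

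Of 20 calcium channel genes tested, 1 was at least 2-fold higher in β cells and 11 were at least 2-fold lower (5 and 55%), with a median log2 fold change of -1.09. The accessory subunit Cacna2d4 ran from 12.4 to 24.5 CPM in α cells (median 15.2) and from 0.0277 to 0.472 CPM in β cells (median 0.137), a log2 fold change of -6.70 ± 0.22. Cacng4 ran from 34 to 58.5 CPM in α cells (median 45.7) and from 1.11 to 3.7 CPM in β cells (median 2.19) (-4.38 ± 0.14). Cacna1d (Cav1.3), the most abundant pore subunit per length in both cell types, was in contrast slightly higher in β cells (0.57 ± 0.09) and its libraries overlapped. When only genes above 5 CPM in 12 libraries were kept, the calcium channel median turned to 0.05 and 4 genes were at least 2-fold lower; that setting leaves out scarce genes. Of 12 sodium channel genes tested, 3 were at least 2-fold higher and 5 lower (25 and 41.7%, against 11.1 and 12.6% of all genes). Among sodium channel pore subunits, Scn3a made up 57.1 ± 3.62% of the family's RPKM in α cells and 26.7 ± 8.97% in β cells, and Scn9a 24.8 ± 2.48% and 56 ± 8.48%; the log2 fold changes were -1.54 ± 0.17 and 0.78 ± 0.07. The sodium channel β subunit Scn3b was lower (-2.98 ± 0.14).

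TRP channels and the gap junction gene stood out on the β side. Trpm5, a sodium-conducting channel opened by calcium, ran from 0 to 0.681 CPM in α cells (median 0.267) and from 51.4 to 213 CPM in β cells (median 107) (log2 fold change 8.65 ± 0.32, SE; edgeR adjusted p = 4.62e-16). It shares its position with Tssc4 on the opposite strand, a gene at a similar level in β cells, and the library kit does not mark strand. Trpm3 (4.20 ± 0.18) and Trpm2 (3.25 ± 0.15), the first a heat- and steroid-sensitive channel and the second opened by ADP-ribose, were also higher. Of 22 TRP and related genes tested, 6 were at least 2-fold higher and 1 lower (27.3 and 4.55%, against 11.1 and 12.6% of all genes). Gjd2 (connexin 36), which couples β cells electrically, ran from 27.8 to 47.8 CPM in α cells (median 38.1) and from 315 to 531 CPM in β cells (median 383) (log2 fold change 3.36 ± 0.10, SE; edgeR adjusted p = 1.05e-17). It was the leading connexin per length in α cells too, with 96.1 ± 2.1% of the family's RPKM. Of 27 ligand-gated channel genes tested, 5 were at least 2-fold higher in β cells and 11 lower (18.5 and 40.7%). Among these, the NMDA subunit Grin1 was higher in β cells (5.46 ± 0.16), with medians of 2.13 (α) and 84.2 CPM (β). The AMPA subunits Gria2 (-3.15 ± 0.20) and Gria3 (-3.09 ± 0.14) were lower.

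Receptors for hormones and nucleotides were among the groups with the most differences in both directions. Of 129 G protein-coupled receptors tested, 47 were at least 2-fold higher in β cells and 38 at least 2-fold lower. They made up 36.4 and 29.5% of the receptors tested, against 11.1 and 12.6% of all genes. Glp1r, the receptor of the incretin GLP-1, ran from 0.506 to 3.27 CPM in α cells (median 0.729) and from 181 to 368 CPM in β cells (median 261) (log2 fold change 8.21 ± 0.21, SE; edgeR adjusted p = 1.24e-18). Gcgr, the glucagon receptor, ran from 0 to 0.408 CPM in α cells (median 0.0447) and from 9.66 to 28.5 CPM in β cells (median 15.6) (log2 fold change 7.31 ± 0.31). Gipr, the receptor of the other incretin, was present in both cell types at medians of 11.4 (α) and 42.3 CPM (β) with overlapping libraries (2.03 ± 0.17), so that it supplied 83.3 ± 11.5% of the incretin and glucagon receptor RPKM in α cells and 7.19 ± 2.37% in β cells. The purine receptors P2ry1 (6.63 ± 0.18) and P2ry6 (7.14 ± 0.24) and the α2A adrenoceptor Adra2a (6.73 ± 0.19), through which adrenaline restrains insulin release, were higher in β cells.

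Avpr1b, Sstr2 and Oxtr were higher in α cells. Avpr1b, the vasopressin V1b receptor, ran from 48.4 to 137 CPM in α cells (median 83.9) and from 0 to 0.189 CPM in β cells (median 0.079) (log2 fold change -10.18 ± 0.20, SE; edgeR adjusted p = 1.54e-20). Sstr2 ran from 21.7 to 58.6 CPM in α cells (median 32.6) and from 0 to 0.134 CPM in β cells (median 0.0293) (-9.59 ± 0.23), while Sstr3, another somatostatin receptor, stood at medians of 147 (α) and 219.9 CPM (β) and was higher in β cells (0.59 ± 0.05) with overlapping libraries. Sstr2 accounted for 28.5 ± 5.33% of the somatostatin receptor RPKM in α cells and 0.0289 ± 0.0352% in β cells. Oxtr, the oxytocin receptor, ran from 131 to 398 CPM in α cells (median 246) and from 1.83 to 13.8 CPM in β cells (median 5.57) (-5.29 ± 0.21). No β library reached the level of any α library for these 3 lower receptors.

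Growth factor and cytokine receptors separated by family. Prlr, the prolactin receptor, ran from 0.335 to 8.98 CPM in α cells (median 1.35) and from 335 to 769.6 CPM in β cells (median 502) (log2 fold change 8.23 ± 0.30, SE; edgeR adjusted p = 3.99e-16); the highest α value was again ZT20 replicate 2, and without it the log2 fold change was 8.54. Insrr, an orphan relative of the insulin receptor that senses alkali, ran from 13.1 to 34.1 CPM in α cells (median 23) and from 303 to 564 CPM in β cells (median 434) (4.20 ± 0.13). Ntrk2 (3.25 ± 0.11), which binds BDNF, Egfr (4.43 ± 0.17) and the RANKL decoy receptor Tnfrsf11b (4.84 ± 0.24) were higher in β cells too. The GDNF family co-receptors Gfra1 (-5.86 ± 0.17) and Gfra3 (-6.27 ± 0.27), the stem cell factor receptor Kit (-3.77 ± 0.20), the scavenger receptor Lrp1 (-3.43 ± 0.13) and the ephrin Efnb2 (-4.45 ± 0.23) were lower. In counts, 21 of 73 cytokine and growth factor receptors tested were at least 2-fold higher in β cells and 8 lower (28.8 and 11%). Of 48 receptor tyrosine kinases and their partners 11 were higher and 20 lower (22.9 and 41.7%). The shares of all genes were 11.1 and 12.6%.

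Signal relay genes downstream of these receptors also differed. Of 54 G protein signalling genes tested, 7 were at least 2-fold higher in β cells and 15 at least 2-fold lower. These shares were 13 and 27.8%, against 11.1 and 12.6% of all genes. Gnas, the stimulatory G protein that activates adenylyl cyclase, ran from 3857 to 5082 CPM in α cells (median 4296) and from 784 to 1111 CPM in β cells (median 904), without overlap (log2 fold change -2.25 ± 0.07, SE; edgeR adjusted p = 1.64e-17); an antisense record over the same locus is counted at a similar level, so the 2 cannot be told apart. The inhibitory Gnai1 (-2.41 ± 0.11) and Rgs4 (-3.95 ± 0.23), which shortens Gi and Gq signals, were lower in β cells, and Rgs16 (2.32 ± 0.16) and the γ subunit Gng12 (3.54 ± 0.15) were higher. Adenylyl cyclases, which make cyclic AMP, changed order: Adcy6 supplied 66.9 ± 3.7% of the family's RPKM in α cells and 47.6 ± 5.12% in β cells, and Adcy9 15.6 ± 3.24% and 48.1 ± 5.15%. In β cells the 2 shares differed by less than their SD. Adcy1 (-5.85 ± 0.24) and Adcy5 (-5.54 ± 0.17) were lower in β cells, with medians there of 0.418 and 0.359 CPM. Pde5a, which degrades cyclic GMP, ran from 5.41 to 13.7 CPM in α cells (median 7.32) and from 132 to 699.5 CPM in β cells (median 284) (5.27 ± 0.23). The catalytic subunit of protein kinase A, Prkaca, did not pass the test, and its 95% interval was -0.02 to 0.18.

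Central metabolism had few large differences, but those at its entry and at pyruvate were wide. Of 31 genes of glycolysis and gluconeogenesis tested, 4 were at least 2-fold higher in β cells and 2 lower, and of 38 genes of pyruvate oxidation and the TCA cycle 4 were higher and 1 lower; these shares (12.9 and 6.45%, 10.5 and 2.63%) lay near or under those of all genes. Hk1, the low-Km hexokinase, ran from 42.6 to 59.1 CPM in α cells (median 52.3) and from 0.0345 to 1.2 CPM in β cells (median 0.393) (log2 fold change -7.05 ± 0.24, SE; edgeR adjusted p = 1.32e-16).

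Pdk4, a kinase that switches off pyruvate dehydrogenase, ran from 187 to 441 CPM in α cells (median 282) and from 0.0346 to 0.508 CPM in β cells (median 0.172) (log2 fold change -10.46 ± 0.20, SE; edgeR adjusted p = 1.54e-20). G6pc2, an islet glucose-6-phosphatase, ran from 9.84 to 27.4 CPM in α cells (median 14.4) and from 1642 to 4838 CPM in β cells (median 2760.1) (log2 fold change 7.58 ± 0.20, SE; edgeR adjusted p = 1.69e-18). Pyruvate carboxylase (Pcx), which replenishes oxaloacetate, ran from 15 to 29 CPM in α cells (median 22.9) and from 179 to 271 CPM in β cells (median 226) (3.35 ± 0.06). Pfkfb2, an activator of glycolysis, was higher by 2.18 ± 0.07, and the cytosolic enzymes Mdh1 (1.07 ± 0.05) and Acly (1.28 ± 0.07), which carry mitochondrial products into the cytosol, were about 2-fold higher. Fbp1, a gluconeogenic phosphatase, ran from 24 to 43.9 CPM in α cells (median 33.1) and from 0.0855 to 0.653 CPM in β cells (median 0.339) (-6.51 ± 0.17), and the glycogen phosphorylases Pygl (-3.05 ± 0.11) and Pygb (-2.18 ± 0.10) were lower. Gapdh and Tkt lay within 95% intervals of -0.25 to 0.04 and 0.01 to 0.27.

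Of 67 genes of amino acid and GABA metabolism tested, 18 were at least 2-fold higher in β cells and 7 at least 2-fold lower. As shares of the list that is 26.9 and 10.4%, against 11.1 and 12.6% of all genes. Gad1, which makes GABA from glutamate, ran from 0.331 to 1.47 CPM in α cells (median 0.728) and from 46.6 to 155 CPM in β cells (median 75.4) (log2 fold change 6.82 ± 0.13, SE; edgeR adjusted p = 1.54e-20). Aass, the entry enzyme of lysine breakdown (7.14 ± 0.38), Phgdh, the entry enzyme of serine synthesis (3.48 ± 0.28), and creatine kinase B (3.20 ± 0.20) were higher in β cells. Glutamate dehydrogenase Glud1 (-1.50 ± 0.06), Oat (-4.80 ± 0.17) and arginase Arg1 (-3.79 ± 0.18) were lower. Oat, ornithine aminotransferase, ran from 38.2 to 115 CPM in α cells (median 54.7) and from 1.14 to 5.73 CPM in β cells (median 2.44), without overlap between the cell types.

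Monoamine, fat and detoxification genes gave further large contrasts. Hadh, a short-chain step of fatty acid oxidation that also restrains glutamate dehydrogenase, ran from 21.5 to 54.4 CPM in α cells (median 30.0). In β cells Hadh ran from 682 to 1118 CPM (median 785) (log2 fold change 4.68 ± 0.11, SE, edgeR adjusted p = 6.61e-19). Yet the fatty acid oxidation list as a whole had 3 of 39 members at least 2-fold higher and 3 lower. Each count is 7.69% of that list, against 11.1 and 12.6% of all genes. Th, tyrosine hydroxylase of dopamine synthesis, ran from 0.0455 to 0.505 CPM in α cells (median 0.213). Its β libraries ran from 26.2 to 38.2 CPM (median 31.6) (7.16 ± 0.17). Maob (1.07 ± 0.08) and the vesicular carrier Slc18a1 (2.23 ± 0.07) were higher as well. Of 14 monoamine genes tested 5 were at least 2-fold higher and none was 2-fold lower (35.7 and 0%). By adjusted p alone 11 were higher and 2 lower, where all genes had shares of 34.2 and 37.3%. Aldh1a3, which makes retinoic acid, ran from 0.0455 to 0.87 CPM in α cells (median 0.221) and from 4.28 to 86 CPM in β cells (median 15.7) (6.58 ± 0.35); its β libraries spread widely but did not overlap with α cells. The carbonic anhydrase family members Car10 (8.52 ± 0.30) and Car15 (5.60 ± 0.20), and the metallothioneins Mt1 (1.94 ± 0.14) and Mt2 (1.53 ± 0.15) were higher; for Car10 the log2 fold change was 9.29 without the α library ZT20 replicate 2. On the α side stood Gpx3, a secreted glutathione peroxidase, which ran from 2667 to 5229.6 CPM in α cells (median 4434) and from 72 to 162 CPM in β cells (median 111) (log2 fold change -5.38 ± 0.13, SE; edgeR adjusted p = 4.05e-19), the lipoprotein lipase Lpl (-2.80 ± 0.14), the retinol carrier Rbp4 (-4.87 ± 0.12) and Ugt8a (-9.56 ± 0.23), which makes galactosylceramide.

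**Figure D2:**
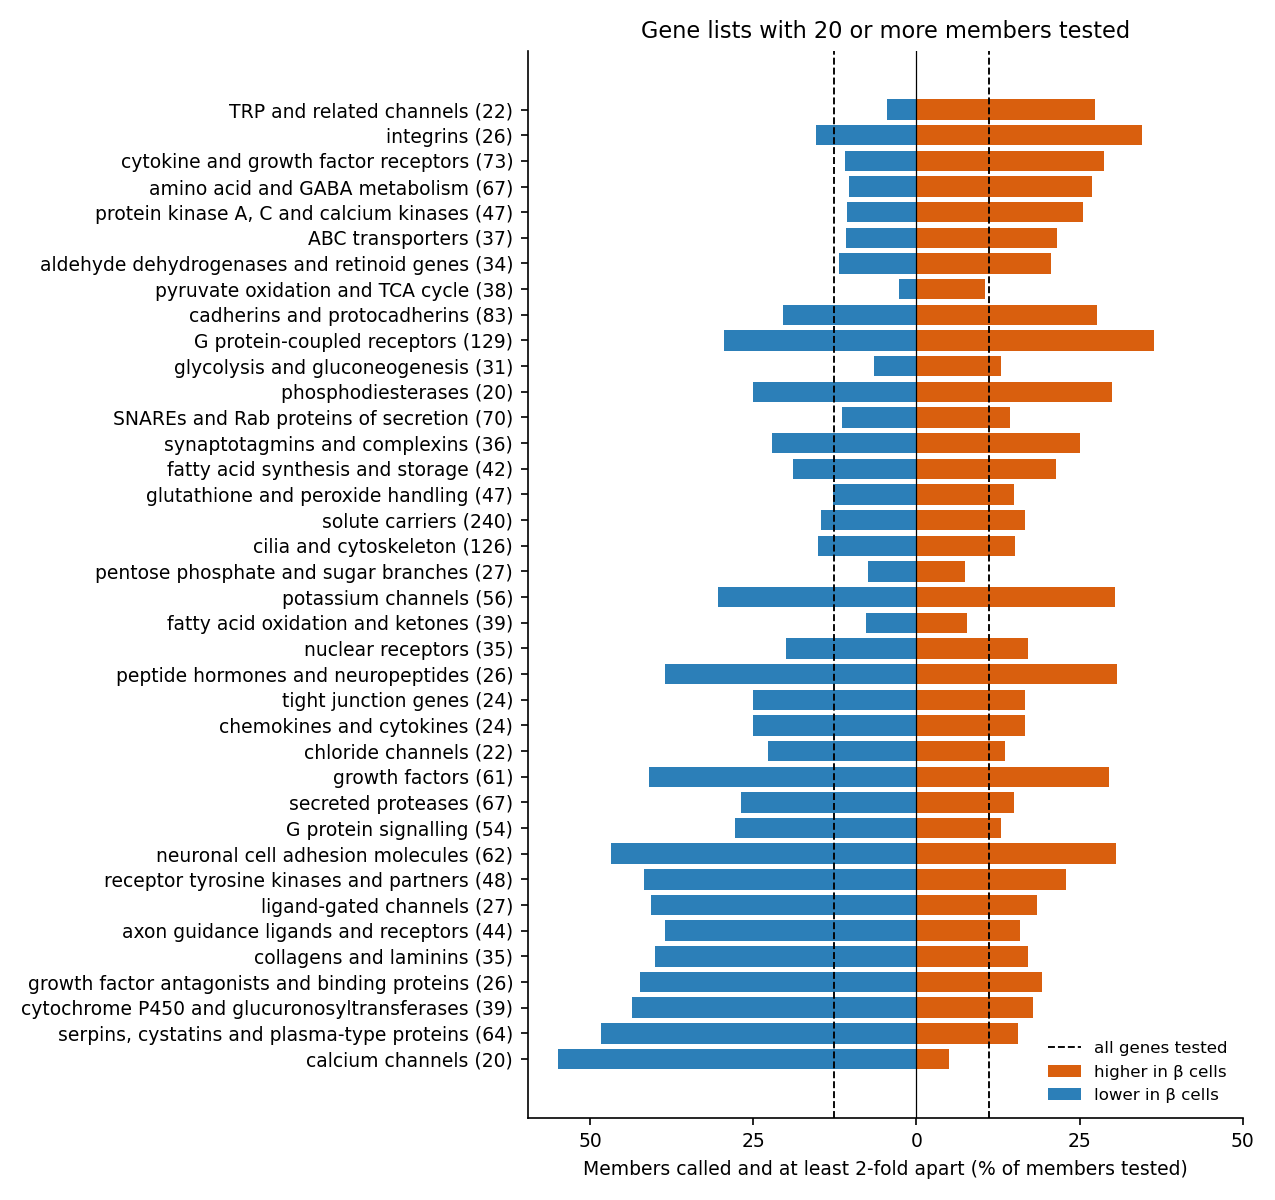
Percent of members tested that were called and at least 2-fold higher (orange) or lower (blue) in β cells, for the lists with 20 or more members tested (number in parentheses), ordered by the difference of the 2 shares; dashed lines give the shares of all genes tested, 11.1% and 12.6%. Calcium channels reached 55% on the lower side and G protein-coupled receptors 36.4% on the higher side, while genes of glycolysis and of the TCA cycle lay near or under the dashed lines.

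Adhesion molecules joined nerve-type and epithelial genes. Of 62 neuronal cell adhesion molecules tested, 19 were at least 2-fold higher in β cells and 29 lower (30.6 and 46.8%). All genes had shares of 11.1 and 12.6%. When only genes above 5 CPM in 12 libraries were kept, 12 were at least 2-fold higher and 10 lower. Cntnap2, a neurexin relative of nerve fibres, ran from 1.04 to 2.66 CPM in α cells (median 1.68) and from 71.9 to 145 CPM in β cells (median 114) (log2 fold change 5.94 ± 0.12, SE; edgeR adjusted p = 4.7e-20), and Cntn1, a contactin, ran from 1.77 to 4.67 CPM in α cells (median 2.64) and from 83.5 to 172 CPM in β cells (median 116) (5.43 ± 0.14). Igsf21, a synaptic immunoglobulin protein, ran from 34 to 46.3 CPM in α cells (median 38.6) and from 0.142 to 0.721 CPM in β cells (median 0.397) (log2 fold change -6.62 ± 0.14, SE; edgeR adjusted p = 7.87e-20). Lrrn3 (-6.15 ± 0.29), Chl1 (-5.15 ± 0.27) and Cadm1 (-3.56 ± 0.12) were lower in β cells too. E-cadherin (Cdh1) was the main classical cadherin of both, with 68.4 ± 2.45% of the family's RPKM in α cells and 77.2 ± 2.42% in β cells, and was higher in β cells by 1.31 ± 0.05. Cdh7 was higher (4.88 ± 0.22) and the protocadherin Pcdh8 lower (-7.11 ± 0.22).

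Tight junctions, integrins and guidance molecules followed. Cldn11 ran from 8.32 to 22.7 CPM in α cells (median 15.2) and from 0 to 0.427 CPM in β cells (median 0.121) (-6.78 ± 0.25) and Cldn6 ran from 27.2 to 42.2 CPM in α cells (median 34.1) and from 1.45 to 5.03 CPM in β cells (median 3.07) (-3.52 ± 0.13); claudins seal the space between epithelial cells. Cldn4 remained the leading claudin per length in both cell types, and Cldn7 rose from 9.72 ± 1.38% of the family's RPKM in α cells to 28.3 ± 4.78% in β cells. Among integrins, which bind matrix, Itgb8 (2.73 ± 0.13), the laminin receptor subunit Itga6 (1.95 ± 0.13) and Itgav (1.58 ± 0.09) were higher. Of 26 integrins tested 9 were at least 2-fold higher and 4 lower (34.6 and 15.4%, against 11.1 and 12.6% of all genes). The 9 include the leukocyte genes Itgax, Itgad and 2 records of Itgam, named after their values were seen. Itgax had a mean of 2.39 CPM in β cells and Itgad of 0.998 CPM, beside the higher macrophage markers. Of 44 axon guidance genes tested 7 were at least 2-fold higher and 17 lower (15.9 and 38.6%, against the same shares of all genes). The receptors Robo1 (2.90 ± 0.10) and Unc5b (3.33 ± 0.11) were higher in β cells, and the ligands Sema3e (-4.69 ± 0.18), Sema4f (-6.09 ± 0.18) and Rgma (-5.74 ± 0.18) were lower.

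Secreted hormones and peptides beyond insulin and glucagon also sorted by cell type. Iapp (amylin), which is released with insulin, was higher in β cells by 6.88 ± 0.16, and Ucn3 by 9.06 ± 0.31. Pdyn, the precursor of dynorphin opioid peptides, ran from 0.387 to 4.17 CPM in α cells (median 1.3) and from 29.5 to 146 CPM in β cells (median 103) (log2 fold change 5.93 ± 0.24, SE; edgeR adjusted p = 2.65e-15). Edn3, the peptide endothelin 3, ran from 133 to 256 CPM in α cells (median 191) and from 0.189 to 0.693 CPM in β cells (median 0.307) (log2 fold change -9.07 ± 0.17, SE; edgeR adjusted p = 1.22e-20). Pyy (peptide YY) had medians of 9220.0 (α) and 41 CPM (β) (log2 fold change -7.67 ± 0.22), and Ppy (pancreatic polypeptide), the hormone of PP cells, medians of 18937 (α) and 46.3 CPM (β). Of the 5 markers of PP and ε cells, the 3 other than these hormones summed to 29.5 to 41.2 CPM in α cells and 0.0324 to 0.896 CPM in β cells; their part in the hormone values was not tested. Somatostatin (Sst), the hormone of δ cells, stood at medians of 1383 (α) and 516 CPM (β). The 7 δ-cell markers other than Sst and Rbp4, the retinol carrier above, summed to 9.85 to 19.5 CPM in α cells. In β cells they summed to 60.0 to 126.9 CPM. A sum follows its most abundant members. Of the 6 δ-cell markers tested, Sst and Rbp4 among them, 1 passed as higher in β cells and 4 as lower.

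The enzymes that mature hormones differed by member. Pcsk1, the convertase that completes insulin and yields GLP-1 from proglucagon, ran from 9.61 to 39.1 CPM in α cells (median 15.8) and from 924 to 1398 CPM in β cells (median 1184) (log2 fold change 6.14 ± 0.17, SE; edgeR adjusted p = 3.15e-18). Pcsk2, which yields glucagon, ran from 8428 to 13907 CPM in α cells (median 12116) and from 3230.5 to 4422 CPM in β cells (median 3637) (-1.64 ± 0.08). Pcsk2 supplied 98.2 ± 0.295% of the convertase RPKM in α cells and 64.9 ± 2.66% in β cells, and Pcsk1 0.205 ± 0.0904% and 28.4 ± 2.85%. The amidating enzyme Pam (-1.11 ± 0.07) was lower in β cells, secretogranin 2 (Scg2) was higher (2.18 ± 0.08), and Cpe, the carboxypeptidase that trims both hormones, lay within a 95% interval of -0.38 to -0.10.

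**Figure D3:**
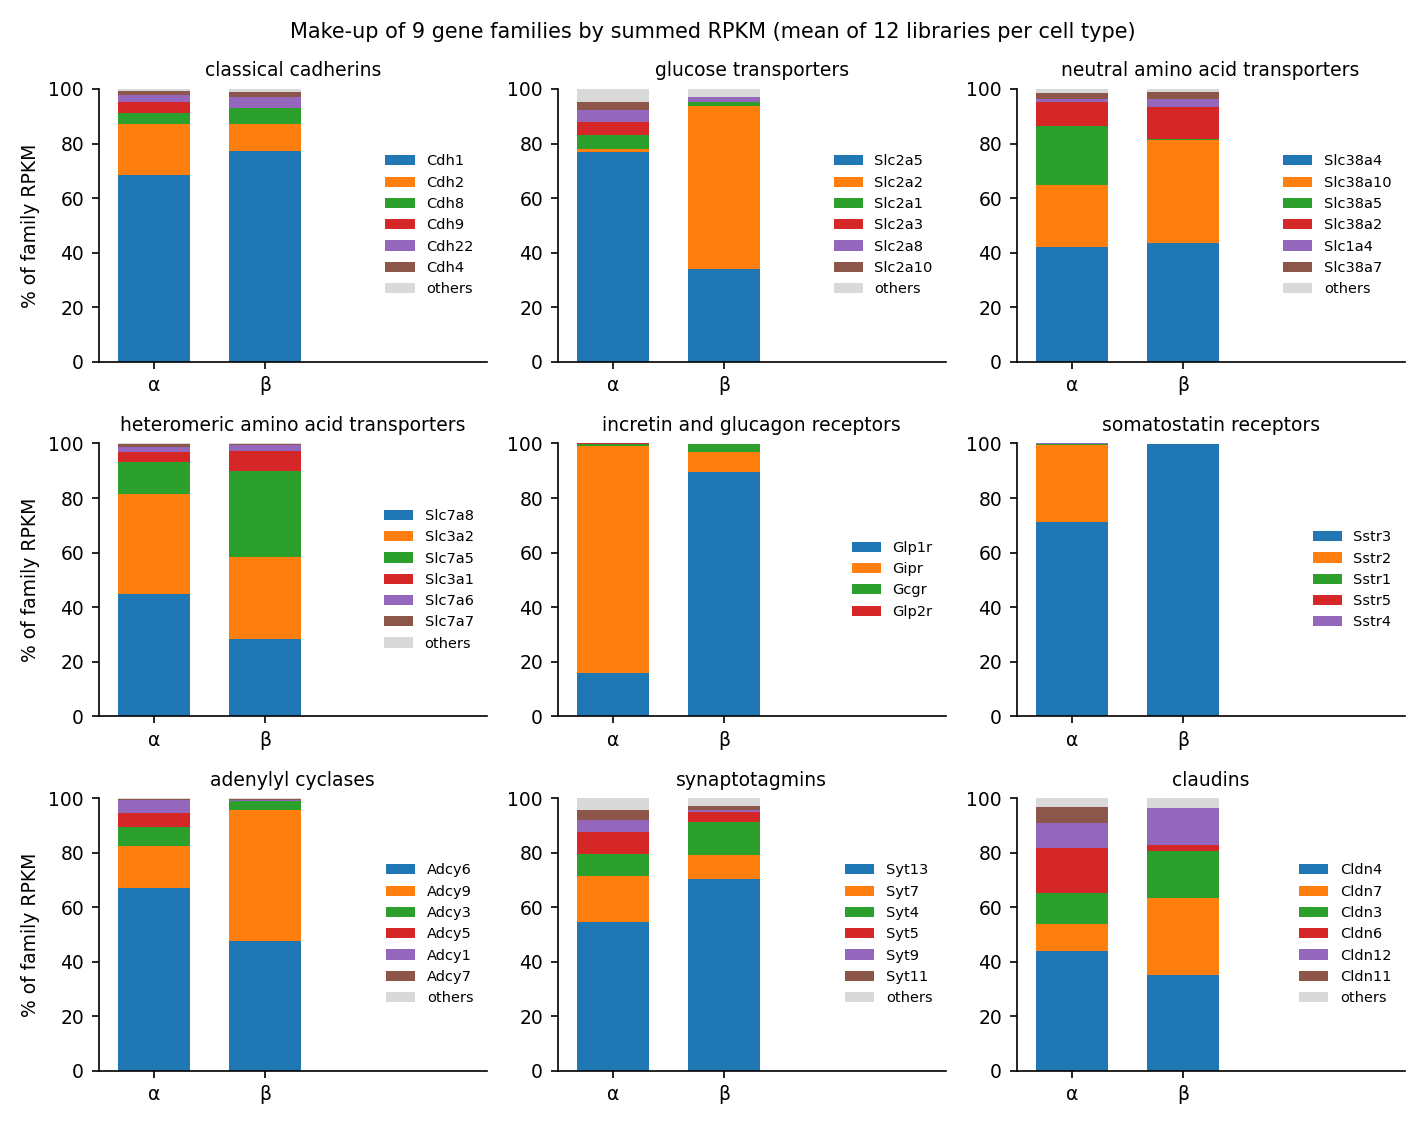
Stacked shares of each family's summed RPKM, mean of 12 α-cell and 12 β-cell libraries, for the 6 most abundant members of each of 9 families (grey, the others). Slc2a2 and Glp1r take the largest shares of their families in β cells, and Slc38a5 and Sstr2 are visible in α cells alone.

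Among growth factors and plasma-type proteins more genes were lower in β cells than higher, for the growth factors only with scarce genes included. Of 61 growth factors tested, 18 were at least 2-fold higher in β cells and 25 at least 2-fold lower (29.5 and 41%). Of 64 serpins, cystatins and plasma-type proteins 10 were higher and 31 lower (15.6 and 48.4%). Both pairs of shares stand against 11.1 and 12.6% of all genes. When only genes above 5 CPM in 12 libraries were kept, 7 growth factors were at least 2-fold higher and 5 lower. With that filter 5 plasma-type proteins were higher and 14 lower. Tgfb2, a TGF-β ligand, ran from 9.1 to 32.7 CPM in α cells (median 23.2) and from 0.0345 to 0.598 CPM in β cells (median 0.277) (-6.15 ± 0.26). Wnt5a (-4.65 ± 0.21) was lower in β cells, as was Sfrp5, a Wnt antagonist (-3.47 ± 0.21). Fgf14 (-5.63 ± 0.25), grouped here by its name and not by any evidence of secretion, was lower too. The Notch ligands parted, with Jag1 lower (-2.91 ± 0.10) and Jag2 higher (3.32 ± 0.21). Igf2 was higher by 3.38 ± 0.26, but it lies beside Ins2 on chromosome 7 and overlaps another record, so its value is uncertain. Itih2, a plasma protein that binds hyaluronan, ran from 17.8 to 35.8 CPM in α cells and was at 0 in 10 of the 12 β libraries. Serpind1 ran from 8.65 to 16.3 CPM in α cells (median 12.2) and from 0 to 0.171 CPM in β cells (median 0.0509) (-7.43 ± 0.31), and Serpine2, a thrombin inhibitor, ran from 30.5 to 60.8 CPM in α cells (median 48.5) and from 1.21 to 2.55 CPM in β cells (median 1.79) (-4.71 ± 0.13). Serpina1b was lower too, but its near-identical copies could share reads.

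Matrix genes also leaned to the lower side, and secreted proteases did so only in the count at 2-fold or more. Of 35 collagens and laminins tested 6 were at least 2-fold higher in β cells and 14 lower (17.1 and 40%). Of 67 secreted proteases 10 were higher and 18 lower (14.9 and 26.9%). The shares of all genes were 11.1 and 12.6%. By adjusted p alone 27 secreted proteases were higher and 23 lower, with a median log2 fold change of -0.04. Lama5 (-4.01 ± 0.19), Lama2 (-5.61 ± 0.50) and Col1a2 (-4.46 ± 0.44) were lower in β cells. Stellate cells and fibroblasts are known for Col1a2; the 14 markers of these cells other than Col1a2 summed to 10.5 to 92.7 CPM in α cells and 4.71 to 58.3 CPM in β cells, and their part in these values was not tested. Col6a6 went the other way and ran from 0.469 to 1.86 CPM in α cells (median 1.09) and from 13.1 to 128 CPM in β cells (median 91.8) (6.29 ± 0.32). Pappa2, which frees insulin-like growth factors from their binding proteins, ran from 1647 to 3473 CPM in α cells (median 2545) and from 19.5 to 220.4 CPM in β cells (median 62.3) (-5.23 ± 0.23). Adamts18 (-7.02 ± 0.29) and Dpp10 (-4.06 ± 0.12) were lower in β cells, and the proteoglycan Spock2 (3.86 ± 0.08) and Bmp1 (2.80 ± 0.08), which trims procollagen, were higher.

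Some genes that were higher in β cells are known from macrophages. Cathepsin S (Ctss) ran from 0.0836 to 3.9 CPM in α cells (median 0.86) and from 1.12 to 37.3 CPM in β cells (median 11.5) (3.40 ± 0.45), and Apoe ran from 6.82 to 25 CPM in α cells (median 13.3) and from 8.61 to 188 CPM in β cells (median 54.6) (2.15 ± 0.36); both overlapped between the cell types. The antigen presentation chain Cd74 (2.76 ± 0.36) and lysozyme Lyz2 (3.36 ± 0.45), markers of dendritic cells and macrophages, were higher in β cells as well, as were 14 of 17 markers of these cells tested, and none of the 14 had separate libraries. The part of such cells in the immune genes of the lists above was not tested. Acinar markers went the other way, with 23 of 25 tested at least 2-fold lower in β cells; that number fell to 7 without the α-cell libraries ZT4 and ZT20 replicate 2.

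Of 70 SNAREs and Rab proteins of secretion tested, 10 were at least 2-fold higher in β cells and 8 lower (14.3 and 11.4%). These shares lay near the 11.1 and 12.6% of all genes. Of 36 synaptotagmins and complexins 9 were at least 2-fold higher and 8 lower (25 and 22.2%), above the shares of all genes. Sytl4 (granuphilin), which docks insulin granules, ran from 0.409 to 5.9 CPM in α cells (median 0.841) and from 317 to 519 CPM in β cells (median 404) (log2 fold change 8.35 ± 0.31, SE; edgeR adjusted p = 6.97e-16); without the α library ZT20 replicate 2 the log2 fold change was 8.80. Its relative Sytl2 ran from 12.4 to 30.2 CPM in α cells (median 21.3) and from 0 to 0.0981 CPM in β cells (median 0.0346) (log2 fold change -8.90 ± 0.25, SE; edgeR adjusted p = 5.92e-18), and 5 β libraries held no count of it. Otof, a calcium sensor of hair cell synapses (-6.96 ± 0.20), Rab27b (-6.27 ± 0.19) and Rab3c (-4.29 ± 0.08), which tether vesicles, and the vesicle protein Sv2b (-3.93 ± 0.21) were lower in β cells. Rims3 (5.89 ± 0.17) and Pclo (2.46 ± 0.14), proteins of the release site, were higher. Syt13 led the synaptotagmins per length in both cell types, with 54.6 ± 5.29% of the family's RPKM in α cells and 70.3 ± 3.98% in β cells, while Syt9, a calcium sensor, was lower in β cells (-2.14 ± 0.07). The core fusion protein Snap25 differed little, with a 95% interval of 0.11 to 0.35.

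Across 24 families of genes grouped by name or role, the member with the most RPKM was the same in both cell types in 17 and different in 7. The 7 were the glucose transporters, the heteromeric amino acid carriers, the sodium channel pore subunits, the incretin and glucagon receptors, the adenylyl cyclases, the lactate dehydrogenases and the type I aldehyde dehydrogenases. Among the lactate dehydrogenases the change rests on counting Ldhd with them. Ldhb stood above Ldha in both cell types. The means were 2.60 and 0.516 RPKM in α cells and 4.90 and 0.397 RPKM in β cells. Summed family RPKM moved from 4.24 ± 1.79 in α cells to 208 ± 52.1 in β cells (mean ± SD, n = 12) for the incretin and glucagon receptors, and from 13.6 ± 2.31 to 135 ± 15.9 for the connexins. For the neutral amino acid carriers it was 196 ± 22.6 and 197 ± 20.4, though their members differed in share. In β cells Slc7a5 (31.5 ± 2.53%) and Slc3a2 (30.0 ± 1.60%) of the heteromeric carriers differed by less than their SD. The leading places of Slc7a5, Ldhd and Cacna1d are uncertain, since each overlaps another measured gene.

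Differences were then compared between times and runs. Of all genes tested 2, Fh1 and Rgs2, had a β minus α difference that varied between the 6 times (0.0134% of genes tested; edgeR), against 569 at an unadjusted p of 0.05 (3.81%) and 92 genes with DESeq2. Each of the 2 was called in only 6 of 24 fits that left out 1 library. For Glp1r the log2 difference at each time ran from 7.36 to 8.68 and for Slc7a2 from -2.24 to -1.67. Of the 3543 genes at least 2-fold apart, 3179 could be tested in the earlier run alone and 3177 of these had the same direction there; in the later run it was 3531 of 3531. A difference between runs passed for 3 genes (0.0201%; Ntn4, Ptprg and Slc35f4; 857 at an unadjusted p of 0.05, 20 with DESeq2). A p that misses the threshold with 2 libraries per cell type and time does not show that the differences were equal at all times.

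**Figure D4:**
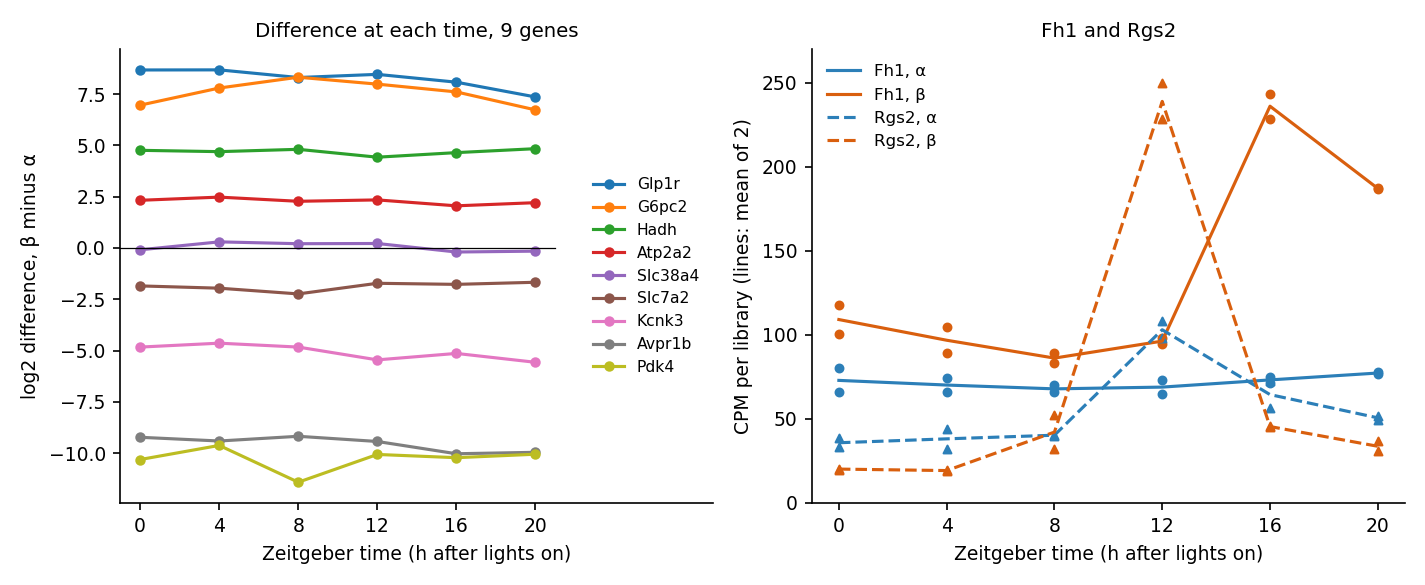
Left, log2 difference (β minus α) of 9 genes at each zeitgeber time, mean of 2 libraries per cell type. Right, CPM per library of Fh1 (circles, solid lines) and Rgs2 (triangles, dashed lines) in α (blue) and β cells (orange), with lines through the mean of 2; Rgs2 peaks at ZT12 in both cell types and Fh1 is highest at ZT16 in β cells.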

How the data were processed

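PolyA RNA of sorted α and β cells was sequenced. The authors deposited estimated counts per gene for 42713 genes and RPKM values, one table of each per run; the submitters' processing notes name bcl2fastq, STAR and the build GRCm38, with versions and the counting program not given in the sources used here. Per the labels, the TruSeq kit (v2) was used, which does not mark strand. The deposited RPKM equals the estimated count over gene length and library total (largest relative deviation 9.6e-10) and was used only for shares within families. All 48 columns were matched by title and 0 remained over.

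Estimated counts were rounded, filtered with filterByExpr (minimum count 10, minimum total count 15), scaled by TMM and fitted with edgeR 4.0.16 (R 4.3.3; quasi-likelihood F test) over the 24 control libraries, with time (6 levels) and run as terms. CPM values are TMM-scaled, except the summed marker levels, which are scaled by total counts alone. The Benjamini-Hochberg adjustment covered all 14945 genes tested. The SE is the log2 fold change over the square root of F. Differences between times and between runs were tested as interaction terms.

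Members of 58 gene lists and 24 families, and the tests, were chosen with earlier results of these data known. Genes were named by rule: Gcg, Ins1, Ins2 and Mafa; the 10 largest differences in each direction at 10 CPM or more whose direction was shared by the 6 times; in each list, 5 genes per direction or fewer at 2-fold or more; up to 3 per list with a 95% interval within -0.5 to 0.5; family members at 10 CPM or more; and the 10 lowest p of each interaction test. Predicted genes were passed over. The rule gave 526 genes, and the main ones are described. Counts were also halved, in case 1 fragment adds 2 to the deposited count. Other alternatives were DESeq2 1.42.0, other scalings and filters, no run term, each run alone, a replicate block and leaving out each library. Of 222 genes described or recomputed, 23 overlap another measured gene with at least 10% of their level and are uncertain, among them Cacna1d, Cacna2d4, Car15, Dnah11, Gapdh, Gjd2, Gnas, Igf2, Kcnj3, Lrrn3, Pcx, Pfkfb2, Serpind1, Slc18a1, Slc27a2, Sstr2, Trpm5 and Tubb3.

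Values of some genes are not reported here. Names absent from the count table under the symbols used (Aldoa and 3 others) were not analysed here.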

Additional observations from a re-analysis of the deposited data

Results flagged for a closer look

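The difference between the cell types varied with time for Fh1 and Rgs2 (edgeR interaction test, adjusted p = 0.0369 for each). Fh1, the fumarase of the TCA cycle, stood at 64.6 to 80.0 CPM in the 12 α libraries at all times. In β cells it was 83.4 to 118 CPM from ZT0 to ZT12, 229 and 244 CPM in the 2 libraries of ZT16 and 187 CPM in both of ZT20. The log2 difference was thus 0.34 at ZT8 and 1.69 at ZT16. Rgs2, which shortens Gq signals, was highest at ZT12 in both cell types, at 98.0 and 108 CPM in α cells and 228 and 250 CPM in β cells. At ZT4 it stood at 32.2 and 44.0 CPM in α cells and 19.1 and 19.3 CPM in β cells, so that the log2 difference went from -0.97 at ZT4 to 1.21 at ZT12. Each time rests on 2 libraries per cell type, and when each of the 24 libraries was left out in turn, Fh1 was called in 6 of the 24 fits and Rgs2 in 6. Neither was called with a run term for each cell type or with a replicate block.

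The difference varied between the runs for Ntn4, Ptprg and Slc35f4 (edgeR interaction test, adjusted p = 0.0344 for each). Ntn4, a netrin of basement membranes, was far lower in β cells in both runs (log2 fold change -5.38 in the earlier and -3.91 in the later). Ptprg, a receptor phosphatase, stood at 4.64 to 5.69 CPM in the 5 β libraries of the earlier run and 7.29 to 26.9 CPM in the 7 of the later run, against 16.7 to 29.4 CPM in all α libraries. Its log2 fold change was -2.07 in the earlier run (adjusted p = 8.69e-07) and -0.05 in the later run (adjusted p = 0.86; edgeR). Slc35f4, named because so few genes passed and below the level the naming rule asks for, reached at most 2.62 CPM in any library and had log2 fold changes of -2.03 and 3.80 in the 2 runs. When each library was left out in turn, each of the 3 genes was called in 4 of 24 fits.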

How the results depend on the processing

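Of 222 genes recomputed under each alternative, 216 were called, and 2866 of their 2879 values under the alternatives kept direction and side of the threshold. Of the others 5 no longer passed (Ptprg in 2, and Cpe, Snap25 and Cela1 in the earlier run alone), 8 now passed (Tkt 6 times, Prkaca and Rgs2) and 0 reversed. The number of genes called was 7970 to 11608 under the alternatives for filter, scaling, tool, run term and replicate block, and 8204 and 9843 in each run alone. At 2-fold or more, the count fell from 3543 to 1753 when only genes above 5 CPM in 12 libraries were kept, which tests 10544 genes; it was 4889 without a filter, 3572 with DESeq2 and 2577 in a test against a 2-fold change. Leaving out each library gave 10511 to 10759 genes called and 3562 to 3626 at 2-fold or more; without both α libraries that stand apart (ZT4 and ZT20 replicate 2, an alternative chosen after seeing the data) it gave 10387 and 3624. Leaving out ZT20 replicate 2 moved the fold of Mafa and Car10 by over 1.5 times, and leaving out β libraries did so for Itih2 and Scin, which are at 0 in most β libraries.

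Genes whose difference varied with time numbered 92 with DESeq2, 23 without a filter and 5 with the stricter filter. None was called with a replicate block, with a run term for each cell type or without both α libraries (edgeR), and 0 to 7 were called when each library was left out. Genes whose difference varied between runs numbered 20 with DESeq2, 8 without a filter, 0 without both α libraries and 0 to 9 when each library was left out; the replicate block called 2, Slc35f4 and Socs3 (named after its value was seen), and not Ntn4 or Ptprg. The cause was not tested. The numbers of the replicates pair α and β libraries by label alone. Same-numbered libraries deviated together from their group means with correlations of 0.06 to 0.41, not over 0.1 at every time. After time and run terms the correlations were 0.086 to 0.351. By deviation from the cell type mean, 9 of 12 α libraries correlated best with their own number. Such pairs also share time and run, so this match cannot show a common animal or pool. The replicate block called 10918 genes, 3566 of them at 2-fold or more. Depth limits scarce genes: values under about 0.1 CPM rest on a few counts.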

Other observations

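Cytoskeleton and nuclear receptor genes, which the groups above leave out, showed a few sharp contrasts on an otherwise shared background. Of 126 genes of cilia and cytoskeleton tested 19 were at least 2-fold higher in β cells and 19 lower (15.1% each, near the 11.1 and 12.6% of all genes). The neuronal tubulin Tubb3 ran from 0.248 to 5.25 CPM in α cells (median 1.55) and from 12.8 to 36.1 CPM in β cells (median 29.1) (4.10 ± 0.30, SE), and the microtubule protein tau (Mapt) was higher by 3.51 ± 0.10. The dynein heavy chain Dnah11 ran from 7.33 to 36.6 CPM in α cells (median 19.5) and from 0.0672 to 0.189 CPM in β cells (median 0.123) (-7.23 ± 0.20), and the neurofilament Nefm was lower in β cells (-3.19 ± 0.15). Of 35 nuclear receptors 6 were at least 2-fold higher and 7 lower (17.1 and 20%). The oxysterol receptor Nr1h3 (4.10 ± 0.13) and the vitamin D receptor Vdr (1.33 ± 0.09) were higher in β cells, and the shared partner Rxra was lower (-1.75 ± 0.06).

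Several of the widest differences fell on genes with no clear place in the lists. Tmem215, a membrane protein of the endoplasmic reticulum, ran from 0.31 to 3.9 CPM in α cells (median 0.776) and from 215 to 415 CPM in β cells (median 342) (8.42 ± 0.26). Egflam (pikachurin), a matrix protein that binds dystroglycan, ran from 67.4 to 123 CPM in α cells (median 77.8) and from 0 to 0.378 CPM in β cells (median 0.112) (-9.68 ± 0.22). Scin, an actin-severing protein, ran from 18.1 to 28.8 CPM in α cells and was at 0 in 9 of the 12 β libraries. Bhlha15, a transcription factor counted among the acinar markers, was higher in β cells (2.38 ± 0.12), unlike 23 of the 25 markers of that list tested.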
